A study of Caenorhabditis elegans with 2 samples.

Results

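On the X chromosome, 4153 candidate regions for HPL-2 lay away from the starts of protein-coding genes, out of 30000 candidate regions in the genome. The list of candidates is labelled as peaks and background, so a candidate is not by itself a bound site. They were chosen by position alone. A region on X was a member when its summit, the base with the most signal, was more than 500 bp from the 5′ end of every annotated protein-coding transcript. The signal in the list, and whether a region passed the authors' threshold, played no part in the choice.

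HPL-2 was mapped in Caenorhabditis elegans by ChIP-seq, in which DNA bound to a precipitated protein is sequenced. The 2 libraries are biological replicates 1 and 3 of a single group of first-stage (L1) larvae that were starved after bleaching, as whole animals of mixed sex. Both came from strain YL474, which carries lin-35(n745), unc-119(ed3) and the integrated array vrIs64, with an unc-119(+) marker. In the array the ges-1 promoter, which is active in the intestine, drives HPL-2 fused to GFP and FLAG. The labels give the target as eGFP-hpl-2 in one place and the antibody as hpl-2 in another. They do not settle whether only the tagged protein or HPL-2 of every tissue was precipitated, and whole animals supplied the chromatin. All samples carry the lin-35 allele, and neither a strain with wild-type lin-35 nor an input or untagged library was analysed here. With 1 group there is no contrast between conditions. The results are descriptions of the regions, set beside the other candidates of the same libraries, and no test was made.

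HPL-2 is a worm homologue of heterochromatin protein HP1, a family whose chromodomain binds methylated histone H3 lysine 9. In worms the X chromosome is also the target of dosage compensation. In hermaphrodites a complex related to condensin is brought to recruitment sites on X with the help of SDC proteins and lowers transcription from both X chromosomes. The switch gene of this pathway, xol-1, lies on X and is repressed in hermaphrodites. A word found in X recruitment sites, known as the MEX motif, has the core GCGCAGGG.

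Most of the strongest regions away from gene starts on X carried that word or a near copy of it. Whether they coincide with known recruitment sites was not tested, as no list of those sites was used here, and no library of another protein was analysed here. GCGCAGGG, searched on both strands within 100 bp of the summit, was present in 13 of the 20 members with the highest pooled signal, against 2.1% of all regions above the authors' threshold and 0.133% of all candidates. Sequences of 30 bases from 9 of them, chosen to show what the strongest regions share around the word, are printed here 5′ to 3′ on the strand that reads GCGCAGGG, with the word in capitals. They come from the RefSeq copy of WBcel235, the sequence of build ce11. Each is named by the gene with the nearest protein-coding 5′ end.
Near W02H3.3, chrX:11094114-11094143, minus strand: cgttttatatcGCGCAGGGagcttatgcat
Near ins-39, chrX:1345045-1345074, plus strand: caatgtcattcGCGCAGGGcagctgagccc
Near Y41G9A.17, chrX:2997112-2997141, minus strand: ttaaatttatcGCGCAGGGaggaagtagcc
Near xol-1, chrX:8036390-8036419, minus strand: aattttttatcGCGCAGGGacgtatgtcga
Near F22H10.2, chrX:16682161-16682190, minus strand: aagaaaacatcGCGCAGGGaacatcaaatt
Near gtr-1, chrX:806663-806692, plus strand: gtgcgattatcGCGCAGGGgtgtttgttgc
Near T24D8.6, chrX:2364888-2364917, minus strand: aaaataattaaGCGCAGGGatatatagtac
Near F20B6.9, chrX:4209255-4209284, minus strand: ttgccgctatcGCGCAGGGacacctctttc
Near col-185, chrX:13514547-13514576, plus strand: atacctttatcGCGCAGGGatattgaaatc
Bases outside the word were shared as well. Over the 18 copies in the 14 members above the authors' threshold that hold the word, the base before it was C in 13. The base before that was T in 14, and the base after the word was A in 14. Of the copies without C before the word, only that near T24D8.6 is printed above, so the printed set looks more alike than all 18. Joining the bases next to the word that at least 50% of the copies share gives TATCGCGCAGGGA.

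Of the 7 members among the strongest 20 that lack GCGCAGGG, 5 held the word with another letter in the fourth place. This near copy, written GCGNAGGG where N is any base, was chosen after the values were seen. The 5 sequences are shown in the same way, to set their letters beside those of the exact word.
Near F55G7.5, chrX:11937446-11937475, minus strand: tgtatcaaatcGCGGAGGGacattgccaaa
Near K02D3.1, chrX:13700893-13700922, minus strand: tagacatttagGCGAAGGGcaatagtattc
Near ZK899.6, chrX:9465872-9465901, plus strand: agaaaatttagGCGAAGGGagagatactga
Near F43E12.1, chrX:7181752-7181781, plus strand: tacccagaaaaGCGAAGGGtatagaacagt
Near fbxb-58, chrX:1627095-1627124, plus strand: cttctcccatcGCGAAGGGatactttcgca
The first of these belongs to the strongest candidate region of the whole genome. With the free letter, 18 of the 20 strongest members held the word, and 8 of them held 2 or more copies. The other 2 were the regions near T27A8.7 and ftt-2. The region near T27A8.7 held CGCAGGGA, which shares 7 letters with GCGCAGGG, and the region near ftt-2 held neither.

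Of the 4153 members, 91 (2.19%, Wilson 95% interval 1.79 to 2.68) were in the authors' thresholded list, which is exactly the 857 strongest pooled candidates by signal. Over all candidates 2.86% were in that list. The share was 4.68% (62 of 1326) for X regions within 500 bp of a gene start and 1.59% (263 of 16521) for autosomal regions away from gene starts. The members' share lay between these and below that of all candidates. Among the strongest regions of all it was higher. Members made up 11 of the 20 strongest pooled candidates (55%), 19 of the strongest 50 (38%) and 22 of the strongest 100 (22%), but 91 of the strongest 857 (10.6%) and 13.8% of all candidates.

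The lists of the libraries by themselves had the same shape. Replicate 1 had 11 members among its strongest 20 and 21 among its strongest 100. Replicate 3 had 10 and 25. The share of the strongest 100 was thus between 21% and 25% in the libraries, while members were 14.1% of all candidates of replicate 1 (4220 of 30000) and 13.3% of those of replicate 3 (3988 of 30000). Pooled regions were called on the reads of both libraries, so the pooled list is not a further replicate.

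**Figure D1:**
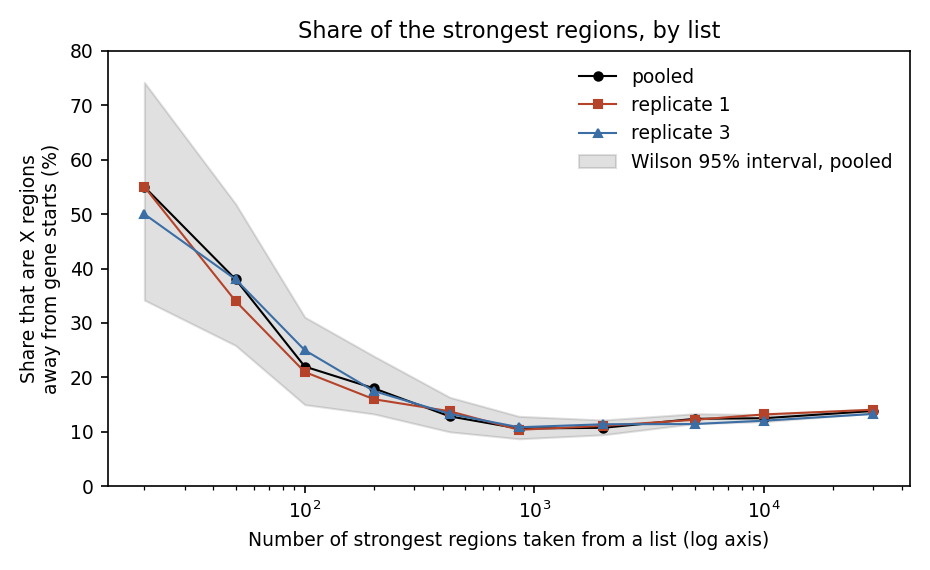
Share of regions that are X regions away from gene starts (y axis, percent) among the strongest regions of a list, against how many were taken (x axis, log scale), for the pooled list and for replicates 1 and 3, with the Wilson 95% interval of the pooled share shaded. The curves lie close together, at 55%, 55% and 50% of the strongest 20, and fall to between 10% and 11% at 857.

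The signal of each region is the authors' enrichment value and ranks regions within 1 list. Thresholded members ran from 37.96 to 253, with a median of 58.1, against a median of 55.8 for thresholded X regions at gene starts, 50.02 for thresholded autosomal regions away from gene starts and 51.2 for all 857. The highest candidate in the genome was the region near F55G7.5 (X, 11937458 to 11937640), in an intergenic stretch 1375 bp from that gene's 5′ end. Its signal was 253 in the pooled list, 198 in replicate 1 and 58.0 in replicate 3, and it was first in all 3 lists. Next came the region near W02H3.3 (pooled signal 224, second in replicate 1 and number 20 in replicate 3) and the region near K02D3.1 (213, number 8 in replicate 1 and number 2 in replicate 3).

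The region near ZK899.6 had a pooled signal of 200, with 161 in replicate 1 and 44.0 in replicate 3. The region near ins-39, an insulin-like peptide gene, had 194, with 153 in replicate 1 and 41.3 in replicate 3. It lies 607 bp from the ins-39 5′ end, just outside the 500 bp limit. The sixth member lies in an exon. Its summit is inside pks-1, a polyketide synthase gene, 15157 bp from the nearest 5′ end, that of C41A3.2. Its signal was 185 in the pooled list, 163 in replicate 1 and 28.5 in replicate 3. The intronic members of the 20 were in Y41G9A.17 (181) and in mom-1 (167), a Porcupine homologue needed for Wnt secretion. Replicate 1 gave higher signal than replicate 3 in every one of these regions, and the scales of separate lists cannot be compared.

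The region near xol-1 had a pooled signal of 178 and was the eighth strongest member. The regions near F22H10.2, nspc-17, gtr-1 and T27A8.7 had pooled signals of 168, 164, 164 and 161. Those near T24D8.6, F43E12.1, F20B6.9 and fbxb-58, an F-box gene, had 138, 136, 135 and 131. The last were the regions near F19H6.5 (113), ftt-2 (113), which encodes a 14-3-3 protein, and col-185 (107), a cuticle collagen gene. The next member, near W01H2.2, had 98.4.

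**Figure D2:**
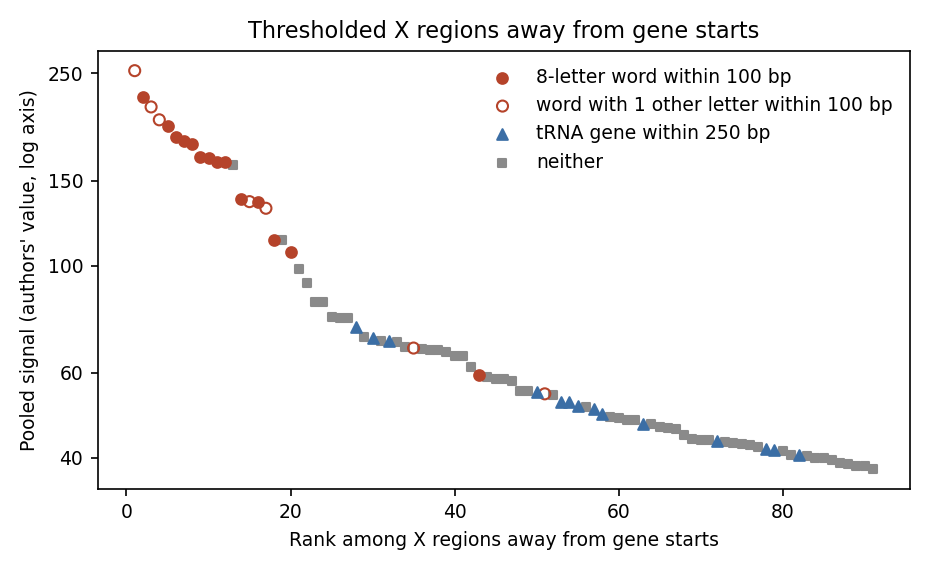
Pooled signal (y axis, the authors' value, log scale) of the 91 thresholded X regions away from gene starts, by rank among the members (x axis), with filled circles for regions with GCGCAGGG within 100 bp of the summit, open circles for those with only a copy with another letter in the fourth place, triangles for regions within 250 bp of a tRNA gene and squares for neither. Circles fill nearly all of the first 20 places and triangles start below them.

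The 20 strongest members were spread along X. Their summits ran from 806671 to 16682117 on a chromosome of 17718942 bp, with a median gap of 825 kb, a smallest gap of 186316 bp and a largest gap of 1.63 Mb. All 91 thresholded members had a median gap of 133 kb. Dividing X into 4 stretches of equal length, the first to the last held 22, 19, 17 and 33 thresholded members, and 6, 4, 5 and 5 of the strongest 20. In all, 16 of the 20 were intergenic, 2 were intronic and 2 were exonic. Most of the strongest 20 were also narrow. Nearly all members, 4134 of 4153, had the list's usual width of 376 bp. Of the 18 narrower members, 17 were thresholded and 14 were among the strongest 20. Another 5 of the strongest 20 had the usual width, and the region near xol-1 was wider, at 472 bp. Widths were not compared with those of strong regions at gene starts or on autosomes.

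In the thresholded members as a whole, 14 of 91 (15.4%, Wilson interval 9.39 to 24.2) held GCGCAGGG, against 7 of 4062 members below the threshold (0.172%, 0.0835 to 0.355). The word was in 2.1% of all thresholded regions and in 0.133% of all candidates. It was in 1 of 62 thresholded X regions at gene starts, 1 of 263 thresholded autosomal regions away from gene starts and 2 of 441 thresholded autosomal regions at gene starts. GCGNAGGG was in 21 of 91 thresholded members (23.1%), 24 of 4062 below the threshold (0.591%), 1 of 62 X regions at gene starts and 6 of 263 autosomal regions (2.28%).

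These shares rest on the strongest members. Of the 71 thresholded members outside the first 20, 1 (1.41%, 0.249 to 7.56) held GCGCAGGG, against 13 of 20 (65%, 43.3 to 81.9). That region, at X 4395641, has dpy-23 as its nearest gene, at 6276 bp, and a pooled signal of 59.4. dpy-23 encodes a subunit of the AP-2 clathrin adaptor. Its signal was 53.6 in replicate 1 (number 203) and 7.35 in replicate 3 (number 2875). Among candidates ranked 1 to 100 in the pooled list, 13 of 22 members (59.1%) had the word, and 0 of 5 X regions at gene starts and 0 of 23 autosomal regions away from gene starts did. A count of 0 of 23 allows a share of up to 13.0%, and 0 of 5 up to 60%. Among ranks 101 to 428, 1 of 33 members had it (3.03%), and among ranks 429 to 857, 0 of 36, which allows up to 8.33%.

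**Figure D3:**
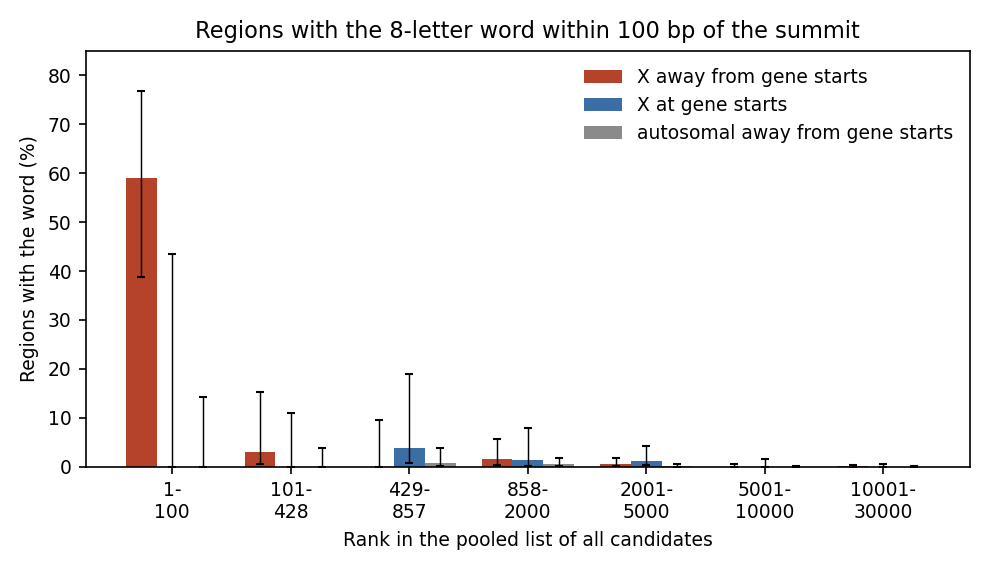
Percent of regions with GCGCAGGG within 100 bp of the summit (y axis), by rank in the pooled list (x axis), for X regions away from gene starts, X regions at gene starts and autosomal regions away from gene starts, with Wilson 95% intervals as bars. Members ranked 1 to 100 stand at 59.1%, and at no later rank does any of these kinds of region pass 4%.

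The libraries' own lists were read in the same way, taking the strongest 857 regions of each. In replicate 1 the word was in 15 of 89 members of that top list (16.9%), and in replicate 3 it was in 12 of 93 (12.9%), a mean of 14.9% ± 2.79 (SD, n = 2 libraries). Below the top lists the mean was 0.175% ± 0.00726 (SD, n = 2 libraries). The difference was thus larger than the spread between the libraries. Among the 20 strongest members of each library's own list, 13 in replicate 1 and 10 in replicate 3 held GCGCAGGG, and 18 and 14 held GCGNAGGG.

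The word is not frequent on X. The chromosome holds 81 copies (4.57 per Mb), against 233 on the autosomes (2.82 per Mb). Of the copies on X, 18 (22.2%) were within 100 bp of the summit of a thresholded member and 7 (8.64%) of a member below the threshold, while 52 (64.2%) were at the summit of no candidate. On the autosomes 1 copy was at a thresholded region away from gene starts, 2 at thresholded regions at gene starts and 218 (93.6%) at no candidate. Most copies on X were thus at no summit of the list. In the thresholded members the middle of the word was at a median of 39 bp from the summit, 11 of 18 copies were within 50 bp and 6 within 25 bp. Copies lay on either side of the summit.

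**Figure D4:**
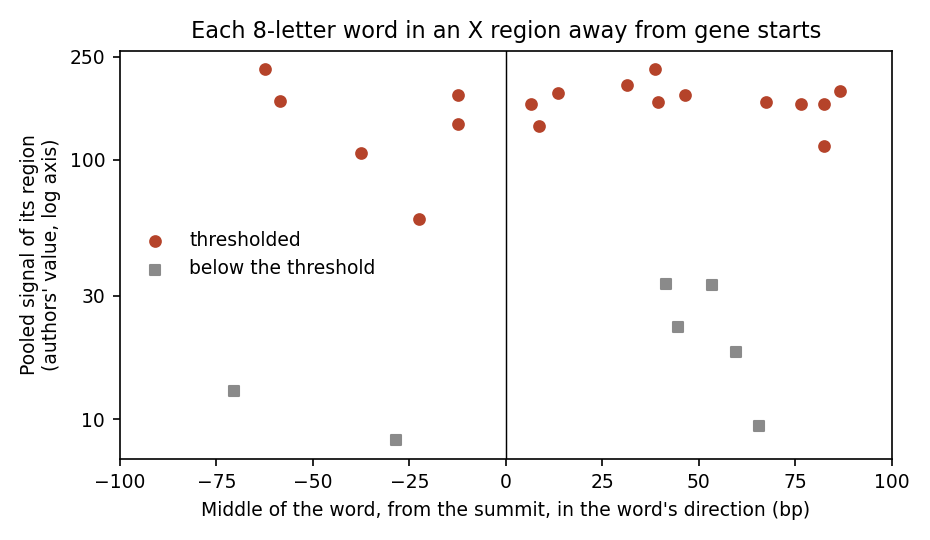
Distance of the middle of each GCGCAGGG copy from the summit of its region, in the direction the word reads (x axis, bp), and the pooled signal of that region (y axis, log scale), for thresholded X regions away from gene starts and for those below the threshold. The 18 copies in thresholded regions lie on both sides of the summit, and the 7 copies below the threshold belong to regions with a signal under 34.

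Below the threshold the strongest members with the word were neighbours of stronger ones. The region at X 2997343, in an intron of Y41G9A.17, had a pooled signal of 33.3. In each library the strongest candidate it overlapped was the same as for the seventh strongest member. The region at X 4208689, near F20B6.9, had 33.1. Members with the word therefore included weak regions too, such as the one near pcyt-2.2 with 9.46.

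All 8-letter words within 100 bp of the summits were then counted, and the 10 with the largest difference in share between thresholded members and those below the threshold were taken. Of these, 7 are GCGCAGGG itself or overlap it or its near copy. Words that overlap can count the same copy. As the words were chosen by this difference, their counts across the threshold are no separate support. CGCAGGGA was in 13 of the strongest 20, in 1 of the other 71 thresholded members and in 6 of 4062 below the threshold. GCGAAGGG, the near copy with A in the fourth place, was in 10 of 20, in 2 of 71 and in 6 of 4062. TCGCGCAG and CGCGCAGG were each in 11 of 20 and in 1 of 71, ATCGCGCA was in 9 and in 1, and CGAAGGGA was in 8 and in 3. Each of these 7 words was in at most 1 of 263 thresholded autosomal regions away from gene starts and in at most 1 of 62 thresholded X regions at gene starts.

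The remaining 3 words were of another kind. GAGAAAGA was in 1 of the strongest 20, in 11 of the other 71 thresholded members and in 26 of 263 thresholded autosomal regions away from gene starts (9.89%). AGACGCAG was in 1, in 9 and in 47 of 263 (17.9%), and CTCTCTTC in 0, in 10 and in 23 of 263 (8.75%). GAGAGAGA, a word chosen after the values were seen, was in 0 of the strongest 20, in 9 of the other 71 (12.7%) and in 45 of 263 autosomal regions (17.1%). The words of the weaker thresholded members were thus also found in thresholded regions of autosomes. A further word chosen after the values were seen, TTATCCAC, was in 8 of the strongest 20, in 1 of the other 71, in 18 of 4062 members below the threshold (0.443%) and in 1 of 263 autosomal regions. It stood together with GCGCAGGG in 5 regions of the whole candidate list, all among the strongest 20. The regions near W02H3.3 and xol-1 held 2 copies of each.

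Base composition was read around the same summits. Thresholded members had 42.7% GC within 100 bp of the summit (SD 7.24 over regions), against 34.8% for members below the threshold. Thresholded X regions at gene starts had 46.7% and thresholded autosomal regions away from gene starts 43.5%. The 20 strongest members had 39.1% (SD 5.53) and the other 71 had 43.7% (SD 7.37, over regions in both cases). In the top lists of the libraries the members' mean GC was 41.9% ± 1.05, against 34.6% ± 0.843 below (SD, n = 2 libraries). Of the sequence around thresholded members, 17.5% was masked as repeats, against 30.5% below the threshold, 14.2% for thresholded X regions at gene starts and 19.6% for thresholded autosomal regions away from gene starts.

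Nearly all of the strongest members were high in both libraries. The pooled signal that picked them comes from the reads of these same libraries, so high ranks there are in part built in. Of the 91 thresholded members, 52 (57.1%, Wilson interval 46.9 to 66.8) overlapped a region in the strongest 857 of both libraries. The share was 46.6% over all thresholded regions, and 1.65% over all candidates. It was 33 of 62 (53.2%) for X regions at gene starts and 116 of 263 (44.1%) for autosomal regions away from gene starts, with intervals that overlap that of the members in both cases. Among the strongest 20 it was 19, and among the other 71 it was 33 (46.5%). Each member takes the strongest region it overlaps, so some of the 33 were credited with a stronger neighbour's region. The weaker member near nspc-17, number 818 in the pooled list, counted as number 27 in replicate 1 and number 3 in replicate 3. Replicate 1 held 79 of the 91 in its top list and replicate 3 held 60, and 4 of the 91 overlapped no candidate of replicate 3. Of all 4153 members, 885 overlapped no candidate of replicate 1 and 2136 none of replicate 3. Over all 30000 candidates these counts were 6284 and 14767.

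Of the 20 strongest, every region was ranked between 1 and 88 in replicate 1, and the 19 with a candidate in replicate 3 were ranked between 1 and 199 there. The exception was the region near F20B6.9 (X, 4209185 to 4209359), which holds GCGCAGGG and GCGAAGGG. Its signal was 135 in the pooled list and 118 in replicate 1, where it was number 25. No candidate of replicate 3 overlapped it, and the nearest summit there was 303 bp away.

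**Figure D5:**
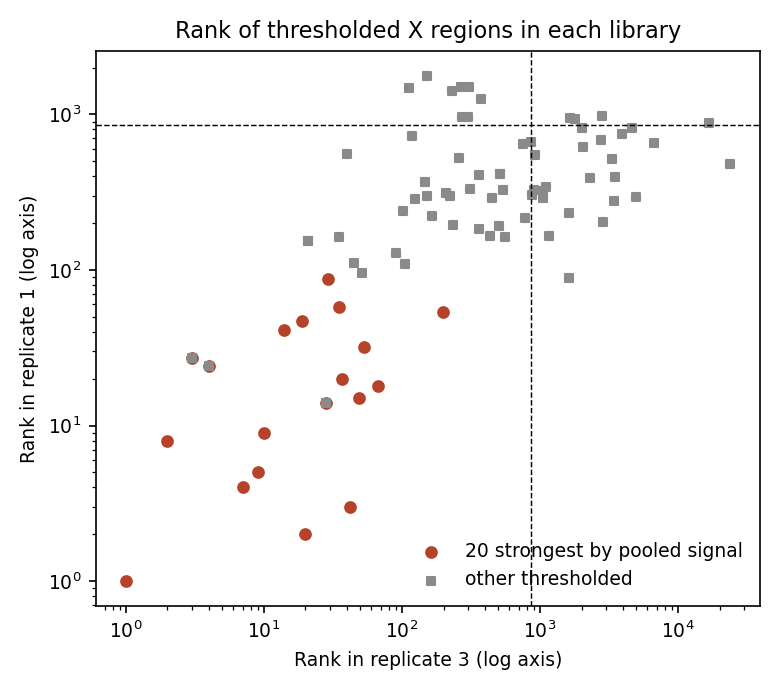
Rank of thresholded X regions away from gene starts in replicate 1 (y axis, log scale) against replicate 3 (x axis, log scale), for the 20 strongest by pooled signal and for the other thresholded members, with dashed lines at rank 857. The 4 members without a candidate in replicate 3 are not drawn. Each member has the rank of the strongest library region it overlaps, so points that coincide are neighbours sharing that region. The strongest 20 lie in the lower left corner, with some weaker neighbours that take their ranks.

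Members close to each other share reads and are not separate observations. Merging summits within 1000 bp left 83 loci of the 91 thresholded members, with 7 runs of neighbours. Of these runs, 1 held 3 members and the others held 2. The run of 3 spans 1121 bp between summits, from X 1503943 to 1505064, over tts-1, a long noncoding RNA gene, with F09E10.1 as its nearest coding gene. Its pooled signals were 46.5, 92.1 and 48.0. In replicate 1 the strongest regions these overlapped had 24.2, 58.1 and 58.1, and in replicate 3 they had 21.2, 36.4 and 36.4. The last 2 members of the run thus share their strongest library regions, though replicate 1 had separate summits 11 and 20 bp from them.

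The region near xol-1 had such a neighbour. The stronger summit, at X 8036392, is 4921 bp from the nearest annotated xol-1 5′ end, with a pooled signal of 178. The weaker, 209 bp away at X 8036601, had 52.3 and lies within 250 bp of a tRNA gene. Both overlap the same region in replicate 1 (signal 141, number 14) and in replicate 3 (33.1, number 28). These library signals therefore do not separate the word from the tRNA gene there. Replicate 3 did have separate summits, 11 bp from the stronger member and 8 bp from the weaker. In replicate 1 the nearest summit was 94 bp from the stronger member and farther from the weaker. Pairs that likewise had the same strongest overlapping region in each library were near mom-1 and cest-16 (167 and 84.2), nspc-17 (164 and 38.9) and osm-11 (47.9 and 46.0). The gene osm-11 encodes a secreted ligand of Notch signalling. Near mom-1 and near nspc-17, each library had separate summits within 100 bp of both members. Near osm-11 replicate 1 did, at 39 and 51 bp, while the nearest summits in replicate 3 were 249 and 45 bp away. The pair near F19H6.5 (113 and 65.1) had the same strongest region in replicate 3, though with separate summits 12 and 11 bp away. In replicate 1 the strongest regions differed, with signals of 84.2 and 57.1. In the pair near mdl-1, in introns of abts-4, the summits were 908 bp apart and had 64.9 and 38.4.

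Noncoding genes lay beside other thresholded members. Of the 91, 29 (31.9%) had a summit within 250 bp of a noncoding gene, against 13.4% of all members. The share was 39.2% for thresholded autosomal regions away from gene starts and 26.4% for all thresholded regions. Of members beside a noncoding gene, 5.23% were thresholded, against 5.61% of all candidates beside one, so the members were near the general share. Of the 29, 1 was among the strongest 20, the region near ftt-2, and none held GCGCAGGG. A tRNA gene lay beside 14 of 91 (15.4%), against 3.52% of all members, and beside 0 of the strongest 20. The share was 4.56% for thresholded autosomal regions away from gene starts, 6.45% for thresholded X regions at gene starts and 3.85% for all thresholded regions. Read from the other side, 14 of 146 members beside a tRNA gene were thresholded (9.59%, 5.80 to 15.5), against 12 of 136 autosomal regions away from gene starts beside a tRNA gene (8.82%, 5.12 to 14.8) and 8.85% of all candidates beside one. The shares on X and on autosomes thus differed by less than their intervals. The tRNA members had pooled signals of 40.5 to 74.5, with a median of 50.9, against a median of 51.0 for all 71 thresholded members outside the strongest 20, which include them. In replicate 1, 12 of the 14 were in the top list, against 59 of the 71. In replicate 3, 6 of the 14 were, against 41 of the 71.

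The strongest tRNA member was near C53C7.3 (74.5, with 57.0 in replicate 1 and 13.8 in replicate 3). Small and long noncoding RNA genes of the annotation's class ncRNA were beside 21 of the 91 (23.1%), against 23.6% of thresholded autosomal regions away from gene starts and 17.97% of all thresholded regions. Of members beside such a gene 5.53% were thresholded, against 9.05% of all candidates beside one. Among them was rncs-1, a noncoding RNA gene known for higher levels in starved worms, which was picked out after its values were seen. The region there (X, 1011090 to 1011465) had a pooled signal of 45.8, with 38.1 in replicate 1 (number 517) and 7.02 in replicate 3 (number 3302), so it was in the top list of replicate 1 but not of replicate 3.

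By place, 66 of 91 thresholded members were intergenic (72.5%), against 51.5% of all members, with 21 in introns and 4 in exons. Place was not counted for thresholded autosomal regions, so whether this is particular to the members was not tested. The median distance to a 5′ end was 2240 bp for thresholded members and 1850 bp for all members. For autosomal regions away from gene starts it was 1656 bp for thresholded regions and 1670 bp for all. The share thresholded was 1.88% for members up to 1000 bp from a 5′ end, 1.98% beyond 1000 and up to 2000 bp, 2.34% beyond 2000 and up to 5000 bp and 2.97% beyond 5000 bp, with intervals that overlap. Annotated 5′ ends of many worm genes are trans-splice sites, so the distance to a site of transcription initiation may be shorter or longer. Of the thresholded members, 39 lay upstream of the nearest 5′ end and 52 downstream.

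The members nearest to genes of 10 lists were counted. Of the X signal elements and the dosage switch, 3 of 4 genes had members, 8 in all, and the 2 thresholded ones were those near xol-1. Of the dosage compensation complex and its SDC genes, 2 are on X and 1 had a member, the region near sdc-2, which encodes the protein that starts X recognition. Its pooled signal was 8.52, and it overlapped no candidate in either library. Insulin-like peptides had 3 members, all near ins-39, of which 1 was thresholded.

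Neuropeptide genes had 42 members, of which 1 was thresholded (2.38%), near nlp-76 (41.8). Nuclear hormone receptor genes had 83 and 3 (3.61%), near nhr-1 (54.0), nhr-35 (42.6) and nhr-14 (37.96). Cuticle collagen genes had 22 and 1, near col-185, and ligand-gated ion channel genes had 24 and 1, near lgc-21 (54.6). None was thresholded of 6 members near GATA factor genes, 1 near a vitellogenin (yolk protein) gene and 10 beside microRNA genes. These shares are to be read beside the 2.19% of all members.

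At the threshold the values are continuous. Just inside were the regions near pdk-1 (38.4), mdl-1 (38.4) and nhr-14 (37.96), and just outside were those near F55A4.13 (37.6), unk-1 (37.5) and pmpl-1 (37.3). In replicate 1 the inside regions were numbers 875, 1491 and 751 and the outside ones numbers 740, 712 and 454. In replicate 3 the inside regions were numbers 16662, 307 and 3959 and the outside ones numbers 1584, 1409 and 20156. Replicate 1 thus ranked each of the 3 regions outside above the 3 inside, and in replicate 3 their ranks were mixed.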

How the data were processed

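ChIP-seq was deposited for 2 libraries, biological replicates 1 and 3. The members and lists were chosen with earlier results of these data known. For each library and for both pooled, the authors deposited 30000 candidate regions on ce11, and a thresholded list. Per the deposited file listing, a library's candidates come from its own alignments and 1 control file, not analysed here, and the thresholded list from the pooled and library lists. Which aligner, peak caller and settings were used is not given in the sources used here. The signal is the authors' deposited enrichment value per region. The deposited −log10 of the q-value was 3.23 in 90 of 91 thresholded members, so regions were ranked by signal. The lists hold no read counts, so depth is unknown. Versions of the lists on an older build were not used.

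Positions count from 1 on ce11 (WBcel235). Genes are from Ensembl release 115, and sequence and repeat masking from RefSeq. GC, masking and words were read within 100 bp of the summit. Library regions were matched by an overlap of at least 1 bp, and the strongest such region was taken. The regions named are the 20 strongest members, the 3 on each side of the threshold, members nearest to genes of the lists, and runs of summits within 1000 bp. Words with N, TTATCCAC, GAGAGAGA and the genes dpy-23, W01H2.2, pcyt-2.2, C53C7.3 and rncs-1 were named after values were seen. Wilson 95% intervals, and upper limits for a 0 (3 counts of the total), express counting error only. Regions are not replicates. The labels call the libraries biological replicates without naming separate cultures, so the spread between them may be partly technical. The functions for distance, overlap and words were tested on simulated data. Python 3.11.15, numpy 2.4.6, pandas 2.3.3, scipy 1.17.1 and matplotlib 3.10.9 were used.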

Additional observations from a re-analysis of the deposited data

How the results depend on the processing

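Of 43 alternatives over 6 results, 24 moved a value by less than the spread between the libraries or within its interval and 19 by more. The share of members above the threshold was 1.74% when 5′ ends of every biotype except piRNA were used, against 2.19%. The members' share of the strongest 100 was 25% with a 250 bp limit, 18% with 1000 bp and 18% with every biotype, and between 21% and 25% leaving out either replicate, against 22%. The share of thresholded members with GCGCAGGG was 21.3% with every biotype, 25.5% in the stronger 428 of the thresholded list, 11% within 50 bp, 18.7% within 200 bp, 23.1% for GCGNAGGG and 1.41% without the 20 strongest members, against 15.4%, and 12.9% to 16.9% leaving out either replicate. Mean GC was 43.9% within 50 bp, 40.3% within 200 bp and 41.1% to 42.6% leaving out either replicate, against 42.7%. Masked sequence was 21.9% within 200 bp and 18.3% to 20.4% leaving out either replicate, against 17.5%. The share in the top lists of both libraries was 83.6% in the stronger 428, 76.9% with top lists of 1714 regions and 46.5% without the 20 strongest members, against 57.1%. GCGNAGGG and the settings without the 20 strongest members were chosen after seeing the data. No paired analysis was possible because there is 1 group. The causes of these moves were not tested. Depth is unknown, and 2 libraries limit every spread.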
